A study of Mus musculus with 4 samples.

Results

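MAP kinases, the kinases above them in the cascade, and the serine/threonine, dual-specificity and tyrosine phosphatases that act against them were followed in the m6A profile of interscapular brown adipose tissue (iBAT) with and without Mettl3 in brown adipocytes. The genes were taken by symbol, as every gene of the deposited peak comparison whose symbol began with Mapk, Map2k, Map3k, Map4k, Dusp, Ppp1, Ppp2, Ppp3, Ppp4, Ppp6, Ppm1 or Ptpn. This gave 87 of the 7077 genes and 124 of the 9243 regions listed. By symbol they fell into 18 kinases, 30 catalytic phosphatases (Ppp catalytic subunits, Ppm1, Dusp and Ptpn genes), 34 regulatory subunits (Ppp genes with an r in the symbol) and 5 genes named for binding or interacting with MAP kinases (Mapk1ip1, Mapk1ip1l, Mapk8ip3, Mapkap1 and Mapkbp1). A prefix is not a function: Mapkap1 encodes a subunit of the mTORC2 complex, and Dusp11 encodes a phosphatase that acts on RNA. RefSeq held 183 protein-coding symbols with these prefixes, so 96 had no region in the comparison, which lists only regions enriched in both genotypes.

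Both groups were 8-week-old C57BL/6 mice homozygous for a Mettl3 allele with loxP sites around exons 2 and 3. The control group, Mettl3 flox/flox, carried this allele alone. The knockout group, BKO, carried it together with Ucp1-iCre, a Cre recombinase translated from the Ucp1 transcript, so the deletion was aimed at brown adipocytes and the vascular, stromal, immune and nerve cells of the tissue kept the intact floxed gene. Total RNA from iBAT of 5 mice was pooled per genotype, and from each pool 1 library was made from RNA pulled down with an m6A antibody (IP) and 1 from the RNA before the pull-down (input). There was thus 1 IP and 1 input library per genotype, with no replicate, so no difference below could be tested against the spread between mice, and every interval given is a 95% interval that covers counting error only.

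In the MAP kinase cascade a MAP3K phosphorylates a MAP2K, which phosphorylates a MAP kinase on a threonine and a tyrosine, and the dual-specificity phosphatases, PP2A, PPM1 enzymes and tyrosine phosphatases remove those phosphates. In brown fat the p38 branch of the cascade is known to carry the β-adrenergic signal to Ucp1 transcription. PP1, PP2A, calcineurin, PP4 and PP6 each pair a small set of catalytic subunits with many regulatory subunits that choose the substrate. METTL3 writes m6A on the adenosine of a short motif, of which GGACT is the most common form, and most of these sites in mRNA lie near the stop codon and in the 3′-UTR.

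The start of the transcript is shown for members with a certain kind of region, labelled 5′-UTR or first exon. The region reached the first 50 transcribed bases and was at least 2-fold more enriched in BKO. Regions at the 5′ end stand apart in the results that follow. Map3k6 met these conditions except that its region was labelled intergenic, and it is shown further below at its motif. The sequences are RefSeq starts on GRCm38.p6, with 8 bases before the start in lower case and the first 22 transcribed bases in capitals.
Ppp2ca, chr11:52098816-52098845, plus strand: cggccgccATTACAGAAAGCCGAGTCCCGA
Ppp2r1b, chr9:50856916-50856945, plus strand: cgtggcctGAGCGCGGGGCGTGGTCTGGGC
Ppp2r1a, chr17:20945446-20945475, plus strand: cccgatccCGGATTCCGCCTGGAGCTCGCT
Map2k4, chr11:65788338-65788367, minus strand: ggcgtgacGGAGGCGTGCCCGGGGCGTGGC
Start windows were given for 70 of the 87 members, and a member region reached the first 50 transcribed bases in 10 of them, at 11 annotated starts. The first 50 transcribed bases were searched for the motif form GGACT and for the forms spelled GGACA, then GGACC, then AGACT, on the strand of the gene. A motif stood in 1 of these 11 stretches. At least 1 stood in 14.6% of the 82 stretches of the members and in 19.9% of the 32851 of the same length over all genes. The match was in Map3k6, at an internal start of the gene, shown with GGACT in capitals.
Map3k6, chr4:133240838-133240867, plus strand: ggttgacttcccaGGACTcttctgtgacct
The median GC content of the 11 stretches was 72.0%, against 68.0% for all stretches of the members and 56.0% for those of all genes. A match is a description of the letters only.

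The libraries held 8309098 and 8826906 reads (IP and input) for flox/flox and 13687380 and 13394055 reads for BKO. The regions of the table took 48.4% of the flox/flox IP reads and 28.7% of the BKO IP reads. At the member regions the median number of reads was 123.5 and 34 (IP and input) for flox/flox and 232 and 76 for BKO, so the flox/flox input, with 0 reads at 7 member regions, set the precision of most ratios. RPM are reads per 1e+06 reads of a library, and fold enrichment divides the RPM of an IP by that of its own input, and the log2 ratio is that of BKO over flox/flox, so that a value below 0 means lower enrichment in BKO. The median log2 ratio over all regions was -1.05, and each gene is represented by its region of highest enrichment in either genotype. That choice uses the same enrichments that form the ratio, and the intervals do not allow for it. The median over all genes was -1.34 with this choice and -1.12 with the region of most input reads. Mettl3 itself was not analysed here. Of the 8 brown adipocyte markers looked up, all had a region, and Adipoq, Fabp4 and Ucp1 were the 3 with the most input reads in both genotypes.

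Most members had a lower enrichment in BKO, at about the rate of all genes. The log2 ratio was below 0 in 60 of 87 members (69.0%) and in 70.7% of all genes. It was at least 2-fold lower in 46 members (52.9%), beside 56.5% of all genes, and at least 2-fold higher in 13 members (14.9%), beside 17.0%. The counting interval lay below 0 in 38 members (50.9% of all genes), above 0 in 12 members (11.4% of all genes) and across 0 in 37. The median log2 ratio was -1.08 for the members and -1.34 for all genes. These shares are near the background, and the members as a group are not set apart by them.

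Kinases, catalytic phosphatases and regulatory subunits each had more members lower than higher in BKO. The median log2 ratio was -0.89 in the 18 kinases, with 12 lower, 8 at least 2-fold lower and 4 at least 2-fold higher. It was -1.23 in the 30 catalytic phosphatases, with 21 lower, 17 at least 2-fold lower and 5 at least 2-fold higher. It was -0.997 in the 34 regulatory subunits, with 23 lower, 17 at least 2-fold lower and 4 at least 2-fold higher. Phosphatases and regulatory subunits together had a median of -1.10 over 64 genes. The interquartile range ran from -1.88 to 0.59 in kinases, from -2.27 to 0.66 in catalytic phosphatases and from -1.52 to 0.28 in regulatory subunits. With 1 library of each kind per genotype the differences between these medians were not tested, and their order changed with the region or filter used. The 5 binding proteins had a median of -3.18, with 4 of 5 lower (80.0%, beside 70.7% of all genes). The values ran from -2.84 to 2.46 in kinases, from -3.98 to 3.38 in catalytic phosphatases and from -6.44 to 2.76 in regulatory subunits, where the lowest rests on 0 reads in the flox/flox input, as the plot of every member by class shows.

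**Figure D1:**
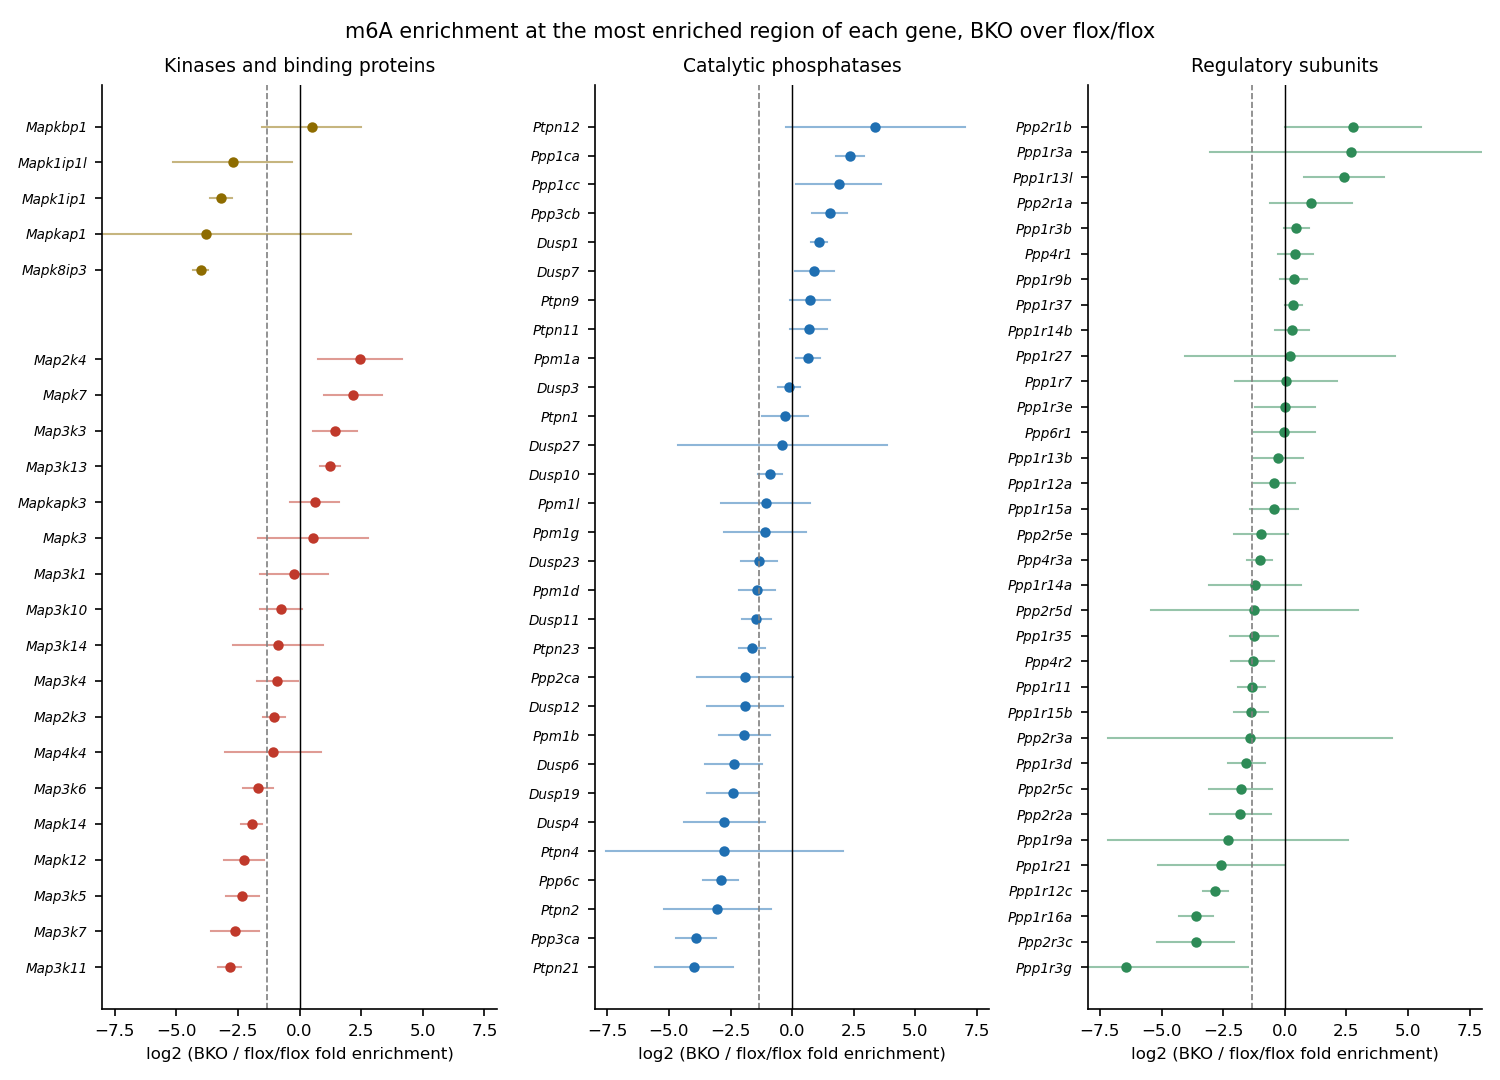
Log2 ratio of the fold enrichment, BKO over flox/flox (x axis), at the region used for each of the 87 members (y axis, ordered within class). Points are the ratios, horizontal lines the 95% counting intervals (drawn to at most 8 on either side), the solid line is 0 and the dashed line the median of all genes, -1.34; each class holds genes on both sides of 0, 60 below and 27 above in all.

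Among the MAP3Ks, which start the cascade, 8 of 10 were lower in BKO (80.0%, beside 70.7% of all genes). Map3k11, the mixed lineage kinase MLK3, was the lowest kinase. Its last-exon region at chr19:5702094-5702866 held IP and input levels of 223 and 11.3 RPM in flox/flox against 77.8 and 28.3 RPM in BKO. Only the flox/flox IP was high, and the fold enrichment was 19.7 (14.8 to 26.1) for flox/flox against 2.75 (2.33 to 3.25) for BKO. The log2 ratio was -2.84 (-3.31 to -2.36). Map3k7 encodes TAK1, which relays cytokine signals to JNK, p38 and NF-κB. Its 3′-UTR region held IP and input levels of 30.4 and 4.19 RPM in flox/flox against 5.92 and 5.002 RPM in BKO, with a log2 ratio of -2.62 (-3.58 to -1.65). Its last-exon region had 3.102 for flox/flox against 4.49 for BKO and a log2 ratio of 0.53 (-0.55 to 1.61), so the lower value was seen at the 3′-UTR region and not in the last exon. Map3k5 encodes ASK1, the kinase of the oxidative stress response, and its last-exon region at chr10:20141520-20142300 held IP and input levels of 65.3 and 6.91 RPM in flox/flox against 22.1 and 11.6 RPM in BKO. Its enrichment was 9.46 (6.504 to 13.7) for flox/flox against 1.901 (1.45 to 2.498) for BKO and its log2 ratio -2.31 (-2.98 to -1.65). The inputs of Map3k11, Map3k7 and Map3k5 were higher in BKO, by log2 values of 1.32, 0.26 and 0.75, while their IPs were lower.

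Map3k3 and Map3k13 went the other way. Map3k3, MEKK3, activates the ERK5 branch through its MAP2K. Its last-exon region held IP and input levels of 9.99 and 3.97 RPM in flox/flox against 78.4 and 11.5 RPM in BKO, with the BKO IP far above the other libraries. The fold enrichment was 2.52 (1.44 to 4.404) for flox/flox against 6.82 (5.37 to 8.66) for BKO, a log2 ratio of 1.44 (0.56 to 2.31). Map3k13 encodes the leucine zipper kinase LZK, and its region lay in an intron and over a further gene model without a symbol in the table. It held IP and input levels of 48.98 and 48.7 RPM in flox/flox against 43.4 and 18.5 RPM in BKO, so the IPs were alike and the BKO input was the low library. Its log2 ratio was 1.22 (0.81 to 1.63). Map3k10, with 4 regions, and Map3k6, with 2, had values in both directions and are described with the regions by place. Map3k4 (-0.91 (-1.74 to -0.08)) had an interval just below 0, and those of Map3k1 (-0.23 (-1.60 to 1.14)) and Map3k14 (-0.87 (-2.68 to 0.93)) crossed 0. Map4k4, a kinase of the Ste20 group above the MAP3Ks, had 4 regions with log2 ratios from -2.07 to 0.63, and its most enriched region had 4 reads in the flox/flox input.

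Of the 7 MAP2Ks, Map2k3 and Map2k4 had a region. Map2k3 encodes MKK3, an activator of p38. Its 3′-UTR region at chr11:60952149-60952762 held IP and input levels of 88.5 and 16.2 RPM in flox/flox against 75.9 and 28.3 RPM in BKO. The IPs were close and the BKO input was the higher of the inputs. Enrichment was 5.46 (4.24 to 7.03) for flox/flox against 2.68 (2.27 to 3.17) for BKO and the log2 ratio -1.03 (-1.46 to -0.59). Map2k4 encodes MKK4, which activates JNK and p38. Its first-exon region, next to the start shown above, held IP and input levels of 1.81 and 1.699 RPM in flox/flox against 10.9 and 1.87 RPM in BKO, with only the BKO IP high, and a log2 ratio of 2.46 (0.76 to 4.15). Its 3′-UTR region held IP and input levels of 40.6 and 9.18 RPM in flox/flox against 77.2 and 19.8 RPM in BKO. IP and input were both higher there in BKO, and the log2 ratio was -0.18 (-0.75 to 0.39).

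Of the MAP kinases, Mapk3, Mapk7, Mapk12 and Mapk14 had a region. Mapk14 encodes p38α, the p38 form that carries the adrenergic signal in brown fat. Its more enriched 3′-UTR region, at chr17:28747825-28748391, held IP and input levels of 148 and 20.96 RPM in flox/flox against 41.7 and 22.7 RPM in BKO. The inputs were alike, the flox/flox IP was the high library, and the fold enrichment was 7.07 (5.69 to 8.803) for flox/flox against 1.84 (1.51 to 2.24) for BKO. The log2 ratio was -1.94 (-2.37 to -1.52). A neighbouring 3′-UTR region, at chr17:28747226-28747523, had an enrichment of 1.26 (0.946 to 1.68) for flox/flox against 2.31 (1.89 to 2.82) for BKO and a log2 ratio of 0.88 (0.37 to 1.38), so the pair of Mapk14 regions went opposite ways with intervals that did not overlap. Mapk12 encodes p38γ, the form abundant in skeletal muscle. Its 3′-UTR region held IP and input levels of 54.8 and 3.74 RPM in flox/flox against 33.6 and 10.9 RPM in BKO, a log2 ratio of -2.25 (-3.06 to -1.43). Mapk7 encodes ERK5. Its last-exon region at chr11:61490077-61490443 held IP and input levels of 4.69 and 3.63 RPM in flox/flox against 18.3 and 3.14 RPM in BKO, the BKO IP being high and the other libraries low. Its enrichment was 1.29 (0.668 to 2.51) for flox/flox against 5.82 (3.67 to 9.25) for BKO and its log2 ratio 2.17 (1.01 to 3.33). Mapk3 encodes ERK1 and had a 5′-UTR region with IP and input counts of 26 and 4 reads in flox/flox against 126 and 14 in BKO. At that depth its log2 ratio of 0.53 (-1.70 to 2.76) is not resolved from 0. Mapkapk3, a kinase that p38 activates, had a last-exon region with a log2 ratio of 0.61 (-0.38 to 1.61). Mapk8, Mapk9, Mapk10, Mapk11 and Mapk13, and Map2k1, Map2k2, Map2k5, Map2k6 and Map2k7, had no region in the table, which says nothing of whether their transcripts carry m6A.

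Of the 5 scaffold and binding genes 4 were lower (80.0%, beside 70.7% of all genes). Mapk8ip3 encodes the JNK scaffold JIP3. Its 3′-UTR region at chr17:24895795-24896316 was the largest IP signal of any member, with IP and input levels of 631 and 34.9 RPM in flox/flox against 77.7 and 69.1 RPM in BKO. This gave an enrichment of 18.1 (15.4 to 21.3) for flox/flox against 1.12 (0.992 to 1.27) for BKO, so the BKO IP was level with its input, and the log2 ratio was -4.01 (-4.30 to -3.71). This region also lay over Mrps34, a gene of the mitochondrial ribosome, and the reads of the pair cannot be told apart. Its other regions had log2 ratios of -2.49 and -1.61. Mapk1ip1 had a 3′-UTR region with IP and input levels of 581 and 21.2 RPM in flox/flox against 45.3 and 15.01 RPM in BKO, a log2 ratio of -3.18 (-3.62 to -2.74). Mapk1ip1l had IP and input counts of 52 and 2 reads in flox/flox against 260 and 88 in BKO, a log2 ratio of -2.71 (-5.13 to -0.29). Mapkap1 was represented by an intron region with 0 reads in either input, and its last-exon region, with IP and input levels of 117 and 11.9 RPM in flox/flox against 17.4 and 11.6 RPM in BKO, had a log2 ratio of -2.71 (-3.30 to -2.13). Mapkbp1 had few reads and a value of 0.49 (-1.52 to 2.49).

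The calcineurin catalytic subunits Ppp3ca and Ppp3cb had opposite values. Calcineurin is the calcium-activated phosphatase of NFAT. Ppp3ca had a 3′-UTR region at chr3:136935527-136935951 with IP and input levels of 66.1 and 3.85 RPM in flox/flox against 15.4 and 13.4 RPM in BKO. The IP was high in flox/flox only, and the input was higher in BKO. As IP over input this was 17.2 (10.5 to 28) for flox/flox against 1.15 (0.8704 to 1.53) for BKO, a log2 ratio of -3.89 (-4.71 to -3.08). Ppp3cb had a 3′-UTR region at chr14:20501233-20501656 with IP and input levels of 11.7 and 8.84 RPM in flox/flox against 44.3 and 11.7 RPM in BKO. The IP was high in BKO only. The fold enrichment was 1.32 (0.867 to 2.01) for flox/flox against 3.78 (2.95 to 4.84) for BKO, a log2 ratio of 1.52 (0.81 to 2.22), so the intervals of these genes lay on opposite sides of 0. Ppp3cc had no region.

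The PP1 catalytic genes with a region, Ppp1ca and Ppp1cc, were both higher, and both regions lay in the 5′-UTR. Ppp1ca had IP and input levels of 31.2 and 18.7 RPM in flox/flox against 65.4 and 7.69 RPM in BKO at chr19:4192078-4192376. The IP was higher and the input lower in BKO. Enrichment was 1.67 (1.27 to 2.198) for flox/flox against 8.503 (6.37 to 11.3) for BKO and the log2 ratio 2.35 (1.77 to 2.93), the highest of the catalytic phosphatases with at least 20 input reads in each genotype. Ppp1cc had IP and input counts of 12 and 12 reads in flox/flox against 171 and 42 in BKO, with a log2 ratio of 1.88 (0.17 to 3.59). Ppp6c, the catalytic subunit of PP6, had a 3′-UTR region at chr2:39196732-39197060 with IP and input levels of 59.7 and 7.02 RPM in flox/flox against 12.9 and 11.3 RPM in BKO. This gave an enrichment of 8.499 (5.85 to 12.3) for flox/flox against 1.13 (0.834 to 1.54) for BKO, a log2 ratio of -2.91 (-3.60 to -2.21). Ppp2ca, the main catalytic subunit of PP2A, had a region labelled at each end. The region labelled 3′-UTR, at chr11:52127330-52127750, lay past the RefSeq end of the gene at 52122749. It held IP and input counts of 187 and 6 reads in flox/flox against 100 and 12 in BKO and had a log2 ratio of -1.91 (-3.85 to 0.03). Its 5′-UTR region, at chr11:52098789-52099185 over the start shown above, held IP and input levels of 13.6 and 9.63 RPM in flox/flox against 189 and 28.7 RPM in BKO and had a log2 ratio of 2.22 (1.61 to 2.84). Both of these regions lay over further gene models without a symbol in the table. Ppp1cb, Ppp2cb and Ppp4c had no region.

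**Figure D2:**
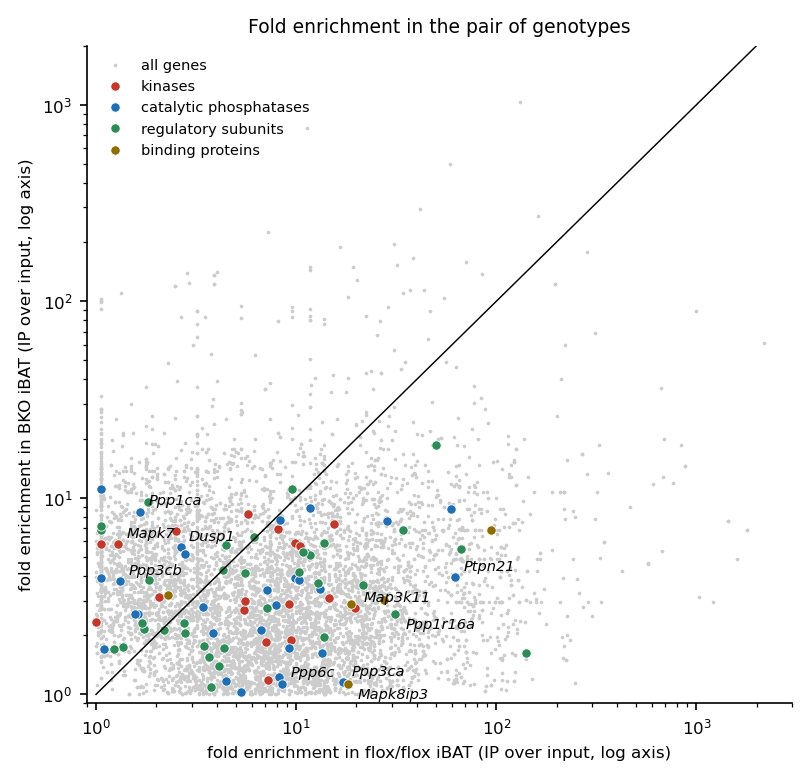
Fold enrichment (IP over input) in flox/flox iBAT (x axis, log scale) against BKO iBAT (y axis, log scale) at the region used for each gene; grey points are all 7077 genes, coloured points the 87 members by class, and the line marks equal enrichment. Ppp3ca lies below the line, at 17.2 and 1.15, and Ppp3cb and Ppp1ca lie above it.

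Several PPM1 enzymes, among them those of Ppm1a and Ppm1b, dephosphorylate p38, JNK and their MAP2Ks. Of the 5 Ppm1 genes 4 were lower (80.0%, beside 70.7% of all genes). Ppm1b was represented by an intron region, with IP and input levels of 31.3 and 2.38 RPM in flox/flox against 19.7 and 5.75 RPM in BKO, a log2 ratio of -1.94 (-2.98 to -0.89). In its internal-exon region IP and input were both higher in BKO, by log2 values of 2.35 and 2.17, and the ratio was 0.18 (-0.39 to 0.74). Ppm1d, a phosphatase induced by p53, had a last-exon ratio of -1.44 (-2.18 to -0.71). Ppm1g had a 3′-UTR region with IP and input levels of 197 and 22.3 RPM in flox/flox against 46.3 and 26.4 RPM in BKO, a log2 ratio of -2.33 (-2.73 to -1.93), and an internal-exon region with a higher enrichment and few reads that gave -1.12 (-2.78 to 0.54). Ppm1a, at its 5′-UTR, was the higher gene of the family at 0.63 (0.15 to 1.11).

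The dual-specificity phosphatases include the MAP kinase phosphatases, several of them immediate early genes that the cascade itself induces. Of the 11 Dusp genes 9 were lower (81.8%, beside 70.7% of all genes) and 7 had intervals below 0 (63.6%, beside 50.9%). Dusp1, the nuclear MKP-1, was the exception with the most reads. Its last-exon region at chr17:26505831-26506596 held IP and input levels of 124 and 46.9 RPM in flox/flox against 195 and 34.6 RPM in BKO. The IP was higher and the input lower in BKO. As IP over input this was 2.65 (2.25 to 3.11) for flox/flox against 5.62 (4.89 to 6.47) for BKO, a log2 ratio of 1.09 (0.78 to 1.39). Dusp6, the cytoplasmic phosphatase of ERK, had a 3′-UTR region at chr10:99267192-99267446 with IP and input levels of 13.8 and 2.61 RPM in flox/flox against 5.11 and 5.002 RPM in BKO. The BKO IP was level with its input. The fold enrichment was 5.31 (2.82 to 10) for flox/flox against 1.02 (0.637 to 1.64) for BKO, a log2 ratio of -2.38 (-3.52 to -1.24). Dusp7, another ERK phosphatase, had IP and input levels of 16.7 and 6.004 RPM in flox/flox against 37.1 and 7.17 RPM in BKO and a ratio of 0.89 (0.11 to 1.68). Dusp10, a phosphatase of JNK and p38, had a last-exon region with IP and input levels of 74.1 and 19.4 RPM in flox/flox against 33.4 and 16.2 RPM in BKO, a ratio of -0.89 (-1.37 to -0.42), and an internal-exon region with -0.86 (-1.90 to 0.18). Dusp4 was represented by an intron region with IP and input levels of 13.96 and 1.699 RPM in flox/flox against 1.83 and 1.49 RPM in BKO, a ratio of -2.75 (-4.37 to -1.12). Its last-exon region, with more reads, had -0.61 (-1.17 to -0.06). Thus among the 5 MAP kinase phosphatases of the rule with a region, Dusp4, Dusp6 and Dusp10 lay below 0 and Dusp1 and Dusp7 above it, each with an interval that did not include 0. Dusp2, Dusp5, Dusp8, Dusp9 and Dusp16 had no region.

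The remaining Dusp genes ranged from -2.42 for Dusp19 to -0.12 for Dusp3. Dusp19 had IP and input levels of 36.6 and 3.97 RPM in flox/flox against 5.41 and 3.14 RPM in BKO, a ratio of -2.42 (-3.47 to -1.37), at a last-exon region that also lay over Nup35. Dusp11, Dusp12 and Dusp23 had ratios of -1.46 (-2.05 to -0.87), -1.92 (-3.45 to -0.39) and -1.34 (-2.07 to -0.61), all with intervals below 0. Dusp3, known as VHR, had an enrichment of 8.33 (6.497 to 10.7) for flox/flox against 7.68 (6.39 to 9.23) for BKO. Its log2 ratio was -0.12 (-0.56 to 0.33), with a counting interval that crossed 0 and lay within 2-fold in either direction. That interval does not cover differences between mice or pull-downs, so it sets no bound on a change between the genotypes.

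Of the 8 non-receptor tyrosine phosphatases 5 were lower (62.5%, beside 70.7% of all genes). Ptpn21 was the lowest, with IP and input counts of 526 and 8 reads in flox/flox against 120 and 29 in BKO at a 3′-UTR region and a ratio of -3.98 (-5.55 to -2.41). Ptpn23 had IP and input levels of 133 and 20.1 RPM in flox/flox against 21.7 and 10.2 RPM in BKO, a ratio of -1.64 (-2.16 to -1.11), at a region shared with Scap. Ptpn1 encodes PTP1B, the phosphatase of the insulin receptor, and had a last-exon region with IP and input levels of 13.96 and 4.08 RPM in flox/flox against 16 and 5.75 RPM in BKO. Its ratio was -0.30 (-1.23 to 0.63), with an interval that crossed 0. Ptpn11 encodes SHP2, which is needed for growth factor signalling to ERK, and had IP and input levels of 11.2 and 6.91 RPM in flox/flox against 34.3 and 13.3 RPM in BKO. Its ratio was 0.67 (-0.08 to 1.42). Ptpn9 had IP and input levels of 10.5 and 6.68 RPM in flox/flox against 22.1 and 8.59 RPM in BKO, a ratio of 0.72 (-0.09 to 1.52). Ptpn2 and Ptpn12 had few input reads and values of -3.04 (-5.20 to -0.88) and 3.38 (-0.25 to 7.004), and Ptpn4 had an intron region with 2 and 0 input reads.

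The PP1 subunits of the myosin phosphatase family included the lowest regulatory values with many reads. Ppp1r16a, a membrane-anchored subunit of the MYPT family, had a last-exon region at chr15:76694377-76694980 with IP and input levels of 152 and 4.87 RPM in flox/flox against 38.2 and 14.9 RPM in BKO. Enrichment was 31.1 (20.2 to 47.8) for flox/flox against 2.56 (2.03 to 3.22) for BKO, a log2 ratio of -3.60 (-4.31 to -2.90). Ppp1r12c, a myosin phosphatase targeting subunit, had a 3′-UTR region with IP and input levels of 145 and 10.5 RPM in flox/flox against 41.5 and 21.3 RPM in BKO. This gave an enrichment of 13.7 (10.2 to 18.5) for flox/flox against 1.95 (1.59 to 2.38) for BKO, a log2 ratio of -2.81 (-3.33 to -2.30). Its relative Ppp1r12a, MYPT1, had IP and input levels of 20.8 and 3.74 RPM in flox/flox against 43.5 and 10.5 RPM in BKO at its last exon, so IP and input were both higher in BKO, and the ratio was -0.42 (-1.27 to 0.43). Among the inhibitors of PP1, Ppp1r11 had IP and input levels of 94.5 and 21.6 RPM in flox/flox against 16.7 and 9.63 RPM in BKO, a ratio of -1.34 (-1.88 to -0.79), with both IP and input lower in BKO. Ppp1r14b had IP and input levels of 13.96 and 8.04 RPM in flox/flox against 36.2 and 16.9 RPM in BKO at its 5′-UTR, a ratio of 0.30 (-0.38 to 0.99).

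The glycogen-targeting subunits of PP1 differed from each other. Ppp1r3d had IP and input levels of 33.9 and 8.27 RPM in flox/flox against 10.2 and 7.32 RPM in BKO at its 3′-UTR, a ratio of -1.55 (-2.30 to -0.81). Ppp1r3b, the form abundant in liver, had IP and input levels of 22.02 and 17.9 RPM in flox/flox against 36.9 and 21.6 RPM in BKO, a ratio of 0.47 (-0.05 to 1.0). Ppp1r3e, at -0.0012 (-1.21 to 1.21), was level. Ppp1r3g had IP and input counts of 132 and 0 reads in flox/flox against 4 and 2 in BKO, so its ratio of -6.44 (-11.40 to -1.47) rests on a few input reads. Ppp1r3a, the form of skeletal muscle, is described with the inputs. The subunits that send PP1 to the translation factor eIF2α were Ppp1r15a (GADD34), with a first-exon ratio of -0.43 (-1.39 to 0.54), and Ppp1r15b (CReP), with a last-exon region of IP and input levels of 43.9 and 6.12 RPM in flox/flox against 35.4 and 12.8 RPM in BKO and a ratio of -1.38 (-2.06 to -0.70). Ppp1r9b, spinophilin, had IP and input levels of 42 and 9.403 RPM in flox/flox against 119 and 20.6 RPM in BKO at its first exon. IP and input were both higher in BKO and the ratio was 0.37 (-0.19 to 0.92). Ppp1r37 had IP and input levels of 65.1 and 47.7 RPM in flox/flox against 61.95 and 35.8 RPM in BKO, a ratio of 0.34 (-0.0023 to 0.69).

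Of the 8 PP2A regulatory genes 6 were lower, a share near the 70.7% of all genes. The scaffold genes Ppp2r1a and Ppp2r1b were the exceptions, each at a 5′-UTR region over the annotated start. At the region used, only 1 of the 8 genes had at least 20 input reads in each genotype. Ppp2r1a had IP and input counts of 18 and 10 reads in flox/flox against 166 and 42 in BKO, a ratio of 1.05 (-0.61 to 2.71). Ppp2r1b had IP and input counts of 4 and 4 reads in flox/flox against 117 and 15 in BKO, a ratio of 2.76 (0.02 to 5.51), and its 3′-UTR region, shared with Sik2, had -0.32 (-0.64 to 0.005). Among the B subunits that choose the substrate, Ppp2r2a had a pair of 3′-UTR regions with ratios of -1.80 and -1.93. The region with the more reads held IP and input levels of 221 and 23.6 RPM in flox/flox against 52.2 and 21.3 RPM in BKO, and its ratio was -1.93 (-2.34 to -1.53). Ppp2r5d had a 3′-UTR region, shared with Mea1, with IP and input levels of 402 and 71.7 RPM in flox/flox against 57.6 and 55.8 RPM in BKO. As IP over input this was 5.604 (4.97 to 6.32) for flox/flox against 1.03 (0.896 to 1.19) for BKO and the ratio -2.44 (-2.71 to -2.17), while its first-exon region had 0 reads in the flox/flox input. Ppp2r3c was lowest, with IP and input counts of 629 and 9 reads in flox/flox against 128 and 22 in BKO and a ratio of -3.61 (-5.17 to -2.04). Of the PP4 subunits, Ppp4r1 had IP and input levels of 16.01 and 9.403 RPM in flox/flox against 21.8 and 9.48 RPM in BKO, a ratio of 0.43 (-0.27 to 1.13), Ppp4r3a had a ratio of -1.02 (-1.54 to -0.50), and Ppp4r2 had -1.30 (-2.17 to -0.44). Ppp6r1 of PP6 had -0.03 (-1.27 to 1.21), beside -2.91 for its catalytic partner Ppp6c.

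The place of a region in the gene went with the direction of its ratio, in the members as in all genes. The regions were labelled by the place of their centre, and those in the 5′-UTR or first exon are called 5′-end regions and those in the last exon or 3′-UTR 3′-end regions. The members had 21 regions at the 5′ end (16.9%, Wilson 95% interval 11.4 to 24.5%) and 76 at the 3′ end (61.3%, 52.5 to 69.4%). Over all pairs of a region and a gene these shares were 9.18% and 61.1%. The median log2 ratio was 0.63 at the 5′ end of members (0.56 over all pairs), where 5 of 21 were lower (36.8% of all pairs). It was -1.05 at the 3′ end of members (-1.30 over all pairs), where 56 of 76 were lower (72.2% of all pairs). At the 5′ end of members all 4 kinase regions and 5 of 6 catalytic phosphatase regions were above 0, and 6 of 10 regulatory subunit regions were. The differences between classes were not tested.

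Member regions lay at the 5′ end more often than all pairs in the whole list (16.9%, beside 9.18%). Among all member regions called as a peak in flox/flox, 5 of 79 lay there (6.33%, 2.73 to 13.97%), beside 4.65% of all pairs. Among those called in BKO it was 19 of 99 (19.2%, 12.6 to 28.04%), beside 11.9%. Of the 45 member regions called in BKO only, 16 lay at the 5′ end (35.6%, Wilson 95% interval 23.2 to 50.2%), beside 570 of 3078 over all pairs (18.5%). Of the 25 member regions called in flox/flox only 2 lay at the 5′ end (8.00%, 2.22 to 24.97%), beside 50 of 2588 (1.93%). These intervals treat regions as independent, which regions of a gene are not, and the difference was not tested further. Counted by gene, the region used was called in flox/flox only in 20 members (30.1% of all genes) and in BKO only in 27 (27.6% of all genes). The 5′-end regions had few input reads: over all pairs their median was 12 in flox/flox, against 30 at the 3′ end.

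**Figure D3:**
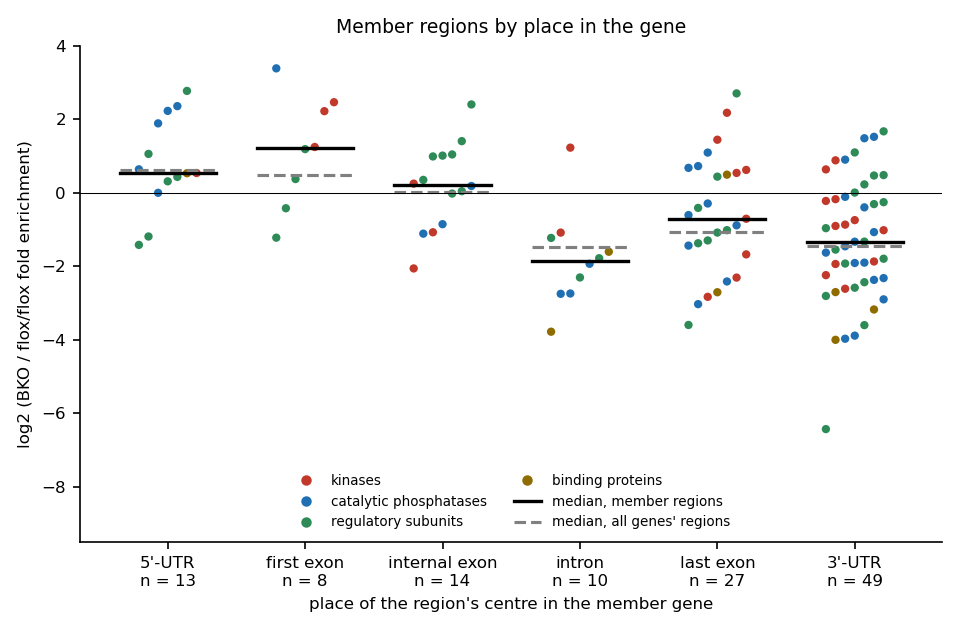
Log2 ratio of fold enrichment, BKO over flox/flox (y axis), of the member regions by the place of their centre in the gene (x axis); each point is a region coloured by class, the black line the median of the member regions and the dashed line that over all pairs of a region and a gene. Member regions in the 5′-UTR and first exon lie mostly above 0 and those in the 3′-UTR mostly below, as do the medians over all pairs.

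Of the members 30 had several regions, and 10 had a region at both ends. In 9 of these 10 the 5′-end region had the higher log2 ratio, beside 89.8% of the 314 genes of the whole table with both. The median difference between the ends was 2.60 on the log2 scale in the members and 2.40 over all genes. In Mapk12 the first-exon region had an enrichment of 1.06 (0.288 to 3.92) for flox/flox against 4.93 (2.804 to 8.66) for BKO, and the 3′-UTR region 14.6 (8.89 to 24.1) for flox/flox against 3.08 (2.37 to 4.01) for BKO. In Ppp2ca the 5′-UTR region had 1.41 (0.949 to 2.103) for flox/flox against 6.58 (5.66 to 7.66) for BKO. The region labelled 3′-UTR, past the RefSeq end of the gene, had 28.5 (9.82 to 82.9) for flox/flox against 7.603 (3.36 to 17.2) for BKO. Mapk1ip1 had 1.32 for flox/flox against 1.89 for BKO at the 5′-UTR, a log2 ratio of 0.53, against -3.18 at its 3′-UTR. Ppp2r3a, a regulatory subunit of PP2A, was the gene with the opposite order, with a 5′-UTR region that had 0 reads in either input and a 3′-UTR region with a ratio of 1.09 (0.45 to 1.73). Only 3 members had at least 20 input reads in each genotype at both ends, and in all 3 the 5′ end was higher.

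**Figure D4:**
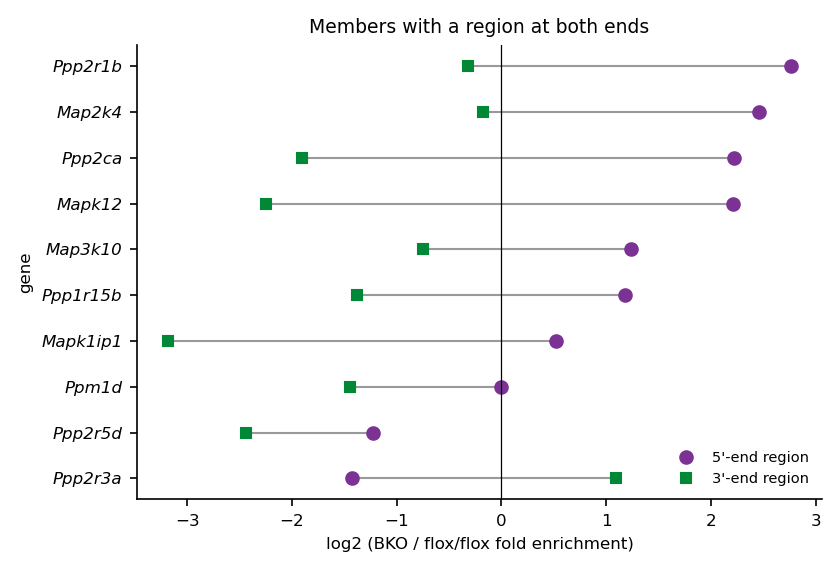
Log2 ratio of fold enrichment, BKO over flox/flox (x axis), at the 5′-end region (circles) and the 3′-end region (squares) of the 10 members that had both (y axis). The circle lies right of the square in 9 genes, and Ppp2r3a shows the opposite order. The square of Ppp2ca is a region past the RefSeq end of the gene.

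In 10 of the 30 members with several regions (33.3%) a region was at least 2-fold lower and another at least 2-fold higher, beside 23.7% of all genes with several regions. They were Map3k10, Map3k6, Mapk12, Ppm1l, Ppp1r15b, Ppp1r7, Ppp2ca, Ppp2r3a, Ppp2r3c and Ppp4r2. Map3k6, a relative of ASK1, had a last-exon region with IP and input levels of 141 and 15.3 RPM in flox/flox against 19.1 and 6.64 RPM in BKO, a ratio of -1.68 (-2.29 to -1.07), and a region labelled intergenic, at chr4:133240413-133241167 over the internal start shown above, with IP and input levels of 15.4 and 10.2 RPM in flox/flox against 22.6 and 4.55 RPM in BKO, a ratio of 1.71 (0.93 to 2.50). Its intervals lay on opposite sides of 0. Map3k10, MLK2, had a first-exon region with IP and input levels of 19.1 and 15.5 RPM in flox/flox against 32.4 and 11.1 RPM in BKO, a ratio of 1.24 (0.64 to 1.84), while its intron region had -1.09 (-2.18 to 0.0033) and its 3′-UTR region, shared with Ttc9b, -0.75 (-1.62 to 0.11). In Ppp1r15b the first-exon region held IP and input levels of 14.6 and 10.9 RPM in flox/flox against 66.4 and 21.9 RPM in BKO, a ratio of 1.18 (0.57 to 1.79), against -1.38 in the last exon. Mapk12, Map3k6 and Ppp1r15b had intervals on opposite sides of 0, and in the other 7 at least 1 of the paired intervals reached 0. Ppm1l ranged from -1.08 to 1.48 between a pair of 3′-UTR regions. Ppp1r7 ranged from -1.09 in the last exon to 1.66 in the 3′-UTR. Ppp2r3c ranged from -3.61 to 1.40, and Ppp4r2 from -1.30 to 1.004.

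Of the 60 members with a lower ratio, 26 had a lower IP and a higher input in BKO (43.3%, beside 55.7% of all genes with a lower ratio), 20 had IP and input both lower (33.3%, beside 24.4%) and 14 had both higher (23.3%, beside 19.9%). The IP RPM was lower in BKO in 48 of 87 members (58.6% of all genes), with a median log2 difference of -0.31, and the input RPM was higher in 60 members (74.4% of all genes), with a median of 0.69. The corresponding medians over all genes were -0.57 and 0.81. The median input difference was 0.50 in kinases, 0.45 in catalytic phosphatases and 0.89 in regulatory subunits. Input reads at a region follow the amount of transcript only in part, since the input difference also varied with the place in the gene. Its median over all pairs was 1.25 at the 5′ end, 1.72 in internal exons and 0.69 at the 3′ end. In Ppp2r5d it was 4.95 at the first exon and -0.36 at the 3′-UTR region. An input difference is thus a value of the region, not of the whole transcript. In a pooled tissue fewer cells of a type and less RNA per cell cannot be told apart. Among members with at least 20 input reads in each genotype, Ppp4r2 had the largest input difference, at 2.44, and Ppm1a, with IP and input levels of 19.6 and 17.9 RPM in flox/flox against 108 and 63.8 RPM in BKO, followed at 1.83. Map3k13, Ppp1ca, Map3k6 and Ppp1r11 had lower inputs in BKO, by -1.40, -1.28, -1.20 and -1.17.

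**Figure D5:**
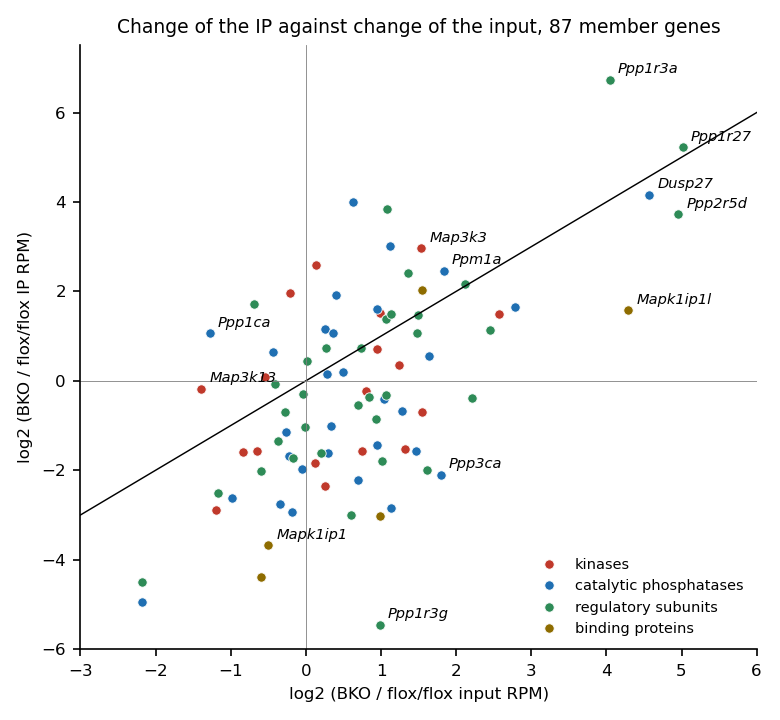
Log2 ratio of the input RPM (x axis) and of the IP RPM (y axis), BKO over flox/flox, at the region used for each of the 87 members, coloured by class; on the diagonal the fold enrichment is equal in the pair of genotypes. Ppp1r27, Dusp27, Ppp1r3a and Ppp2r5d lie at the far right, with 0 reads in the flox/flox input, and Ppp3ca and Mapk1ip1 lie far below the diagonal.

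Of the 5 members with the largest input differences, Ppp1r27, Dusp27 and Ppp1r3a are genes of striated muscle, and Ppp2r5d at its first exon and Mapk1ip1l are not. Ppp1r3a, the muscle glycogen-targeting subunit of PP1, had IP and input counts of 0 and 0 reads in flox/flox against 175 and 24 in BKO. Against the limit of 3 fragments, or 6 reads, that a count of 0 allows per library, its input was at least 2.64-fold and its IP at least 17.7-fold higher in BKO, where the bound leaves out the counting error of BKO. Ppp1r27 had IP and input counts of 8 and 0 reads in flox/flox against 557 and 48 in BKO, an input at least 5.27-fold higher. Dusp27, a muscle gene of the Dusp family, had IP and input counts of 10 and 0 reads in flox/flox against 324 and 35 in BKO, an input at least 3.84-fold higher. Ppp2r5d had 0 input reads at its first exon in flox/flox against 46 in BKO, an input at least 5.05-fold higher, and Mapk1ip1l had 2 against 88. At the 3′-UTR region of Ppp2r5d, shared with Mea1, the input was 71.7 RPM in flox/flox against 55.8 RPM in BKO. With 0 reads in the flox/flox input the enrichment ratios of the muscle genes Ppp1r3a, Ppp1r27 and Dusp27, at 2.70 (-3.02 to 8.42), 0.22 (-4.04 to 4.48) and -0.40 (-4.64 to 3.83), are not resolved from 0. Of 8 skeletal muscle markers looked up, 6 had a region (Casq2, Mb, Myh1, Myh2, Myh7 and Tnnc1), and all 6 had more input in BKO. Their input summed to 5.44 RPM for flox/flox against 235 RPM for BKO, with Myh7 at 0 reads in flox/flox and 1065 in BKO. The part of these muscle transcripts in the values of Ppp1r3a, Ppp1r27, Dusp27 and Mapk12 was not tested. The summed input of the 4 fibroblast markers was 137 RPM for flox/flox against 523 RPM for BKO, that of 3 of 5 macrophage markers 107 and 171 RPM, and that of 2 of 3 Schwann cell markers 10.4 and 15.2 RPM, with every one of these markers higher in BKO. The 4 endothelial markers summed to 251 and 151 RPM, with 1 of 4 higher in BKO, Pecam1 at 6.91 and 13.96 RPM. No marker with a region other than Myh7 was at 0 reads in either input. The 8 brown adipocyte markers summed to 1796 RPM for flox/flox against 3732 RPM for BKO, with 5 of 8 higher in BKO. Adipoq, at 876 and 1591 RPM, and Fabp4, at 473 and 1671 RPM, made up most of that sum, while Ucp1 stood at 229 and 216 RPM and Prdm16 at 12.6 and 4.55 RPM. The sums of all these lists hold only reads inside listed regions, so they do not measure whole transcripts. Cidea, for example, had only 6 such reads for flox/flox and 9 for BKO. By quantitative PCR the paper reported less mRNA of adiponectin, aP2 (Fabp4), Pparg, Ucp1, Prdm16 and Cidea in BKO. The input was likewise lower in BKO at Ucp1, Prdm16 and Cidea (0.793 and 0.747 RPM). It was higher at Adipoq, Fabp4 and Pparg (53.2 and 69.3 RPM), opposite to the paper. The reason for the difference at Adipoq, Fabp4 and Pparg was not tested. Whether any of these lists moved the member inputs was not tested.

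Other genes of the pathway, from lists of upstream, downstream and further phosphatase genes, gave 59 with a region. Of these 39 were lower (66.1%, beside 70.7% of all genes), 32 at least 2-fold lower (54.2%, beside 56.5%) and 12 at least 2-fold higher (20.3%, beside 17.0%), with a median of -1.17. Of the genes of growth factor input to the cascade, 6 of 15 were at least 2-fold lower and 3 at least 2-fold higher. Hras had a log2 ratio of -2.13 (-2.46 to -1.81), while Sos1, the exchange factor of RAS, had 1.20 (0.42 to 1.98). Of the 13 stress input genes listed, 7 had a region, and all 7 were at least 2-fold lower (56.5% of all genes). Each of these regions lay in the last exon or 3′-UTR, and Nlk and Gadd45a had 2 and 6 reads in the flox/flox input. Gadd45g, an activator of the p38 and JNK MAP3Ks, had -3.82 (-4.21 to -3.42). Tab1, the partner of TAK1, had -2.86 (-3.80 to -1.92), beside -2.62 for Map3k7 itself. Of the transcription factors that MAP kinases phosphorylate or induce, 5 of 12 were at least 2-fold lower and 3 at least 2-fold higher. Jun had -1.97 (-2.51 to -1.43), Egr1 -2.71 (-3.65 to -1.78) and Creb1 2.45 (1.16 to 3.74). The inhibitors Spry2 and Spred2 had 1.54 (0.64 to 2.44) and 2.02 (0.46 to 3.58), and Spry1 had -3.14 (-5.15 to -1.12). Of the further phosphatases, 5 of the 10 genes were at least 2-fold lower.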

How the data were processed

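Poly(A)+ RNA of iBAT, pooled from 5 mice per genotype, was fragmented and sequenced before and after m6A immunoprecipitation. Per the study's methods, reads were trimmed with skewer, mapped to Ensembl GRCm38.90 with BWA 0.7.12-r1039, and peaks were called with MACS2 2.1.0. The deposited table gives, per region and overlapping gene, read counts that the authors made for each library, RPM that the authors computed as the count plus 1 over the library total, scaled to 1e+06 reads, and fold enrichment, the ratio of IP RPM to input RPM as deposited. How peaks were joined, how reads were counted and whether coordinates start from 0 or 1 is not given in the sources used here. A deposited column of the authors' own log2 fold change was not used. All listed regions had an enrichment above 1 in both genotypes, so regions lost in 1 genotype could be missing, and BWA does not join reads across introns.

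The log2 ratio of each region was taken afresh from its deposited enrichment values with Python 3.11.15, pandas 2.3.3 and SciPy 1.17.1. Intervals are normal approximations on the log scale from the 4 counts, with 2 reads counted as 1 fragment, since low counts were mostly even (77.2 to 92.5% of counts from 1 to 20). They cover counting error only, and fragments after PCR are not independent molecules. The interval script was tested on counts simulated from the same model, at genes with at least 20 input reads in each genotype. That could check the arithmetic only, and not the intervals of regions with fewer reads. Library totals came from counts and RPM. With 1 library per group no test was made. Full values were given to the 5 lowest and 5 highest genes of each class with at least 20 input reads in each genotype, to core enzymes and MAP kinase phosphatases whatever their value, and to genes with regions in both directions; other members are given by ratio or count. The members and gene lists were chosen with earlier results of these data known. Alternatives changed the scaling, the region standing for a gene, the filters, the pseudocount and the fold threshold. Peak sequences were not analysed here. Some genes are not reported here.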

Additional observations from a re-analysis of the deposited data

How the results depend on the processing

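No paired analysis was possible because each genotype had 1 IP and 1 input library. Of the main values, those that moved by over 1.5 times or changed sign are as follows. With the median of all regions, -1.05, subtracted, the median log2 ratio was 0.16 in kinases, -0.18 in catalytic phosphatases and 0.052 in regulatory subunits, and 22 members were at least 2-fold lower (25.3%, beside 36.5% of all genes) and 29 at least 2-fold higher (33.3%, beside 29.9%). The same constant was taken from every region, so these shifts follow from its size. With the mean over all regions of a gene the regulatory median was -0.21. Among the 62 members with a region of at least 20 input reads in each genotype 8 were at least 2-fold higher (12.9%, beside 12.5% of all genes), and among the 64 with a region called in flox/flox 2 were (3.13%, beside 3.38%). At a 4-fold threshold 22 members were lower (25.3%, beside 37.4% of all genes) and 7 higher (8.05%, beside 7.47%). With at least 20 input reads in each genotype, an alternative chosen after seeing the data, 3 of 3 members had the higher ratio at the 5′ end. Each of the other alternatives, also those chosen after seeing the data (every member region counted once, and 3′-end regions only), left each median on the same side of 0 and within a factor of 1.5 as an unlogged fold, and each count within 1.5 times. On the log2 scale these medians ran from -1.08 to -0.31 in kinases, from -1.77 to -0.75 in catalytic phosphatases and from -1.32 to -0.42 in regulatory subunits. The order of the class medians changed: with the region of most input reads the kinases were lowest, at -0.79, then the catalytic phosphatases at -0.75 and the regulatory subunits at -0.42. Depth limits the flox/flox input most, where the median member region had 34.0 reads.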
